A study of Arabidopsis thaliana with 18 samples.

Results

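Cyclin-dependent kinase (CDK) inhibitors of the KRP and SIM/SMR families were followed in detached Arabidopsis thaliana leaves across seedling age and culture. The 10 genes were chosen by locus identifier and not by a cut on their values, but with earlier results of these data known. They are 10 of the 37686 genes in the deposited tables: KRP1 to KRP7, SIM, SMR1 (also called LGO) and SMR5. All 10 passed the filter on low counts, which left 20952 genes for testing. All plants were wild type of ecotype Col-0, a standard laboratory line, germinated on MS medium with sucrose in constant light. Seedlings aged 9, 12 or 15 days gave their first pair of rosette leaves, from which RNA with poly(A) tails was taken either directly (uncultured) or once the detached leaves had spent 1 day on sucrose-free B5 medium (cultured). Each of the 6 groups had 3 libraries, 18 in all, and n = 3 per group holds throughout. The labels number 3 replicates per group where the series description speaks of duplicates, and nothing states that they came from separate plantings, so the p-values reflect only how far these samples differ, which may be technical.

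Plant cells divide when CDKs are bound by cyclins, and CDK inhibitors hold these complexes inactive. KRP proteins resemble the mammalian inhibitor p27 in a short C-terminal stretch and act mainly on CDKA;1 with D-type cyclins, whereas SIM and the SMR proteins share only small motifs with them. In leaves, both families are known for the step from division to endoreduplication, in which cells copy their DNA without dividing, and some SMR genes are known for their response to DNA damage and oxidative stress.

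Library totals ranged from 29664089 to 51126114 expected counts. Summed levels of 5 leaf mesophyll marker genes lay between 17308 and 81436 CPM (counts scaled to library size), whereas 7 root markers summed to at most 0.984 CPM and 4 shoot meristem markers to at most 0.195 CPM in any library. Replicate 2 before culture stood apart at 12 and 15 days: a list of 7 touch and early stress genes summed to 3498 CPM there at 12 days against 128 and 1407 in the other libraries, and to 8723 against 1056 and 221 at 15 days. A list of 8 sugar starvation genes was also highest in these libraries, at 2694 against 165 and 367 CPM and at 13101 against 1112 and 898 CPM. Results that rest on these 2 libraries are given with and without them, and their part in other differences was not tested. Where neither is in the groups compared, they enter only through the fit and adjustment shared by all groups. Replicate 3 samples carry other wording in their labels than replicates 1 and 2, and KRP1 was highest in replicate 3 in 6 of 6 groups. In whole leaves, fewer cells of a type and less RNA per cell cannot be told apart.

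Among the members, KRP4 fell in culture at 12 and 15 days, KRP3 and SMR5 rose at 15 days and KRP6 rose at 9 days. SIM fell at 15 days with all libraries, but not without the 2 that stood apart (-0.60 ± 0.32 on the log2 scale, adjusted p = 0.151). Without these 2 libraries KRP6 rose at 12 and 15 days as well. The difference between its responses at 15 and 9 days passed in neither fit. The call of KRP6 at 9 days was lost without replicate 1 or replicate 3 in all groups. KRP1, KRP2, KRP5, KRP7 and SMR1 passed the edgeR test in none of the 12 comparisons made, while DESeq2 called KRP7 in 2 of them. KRP3 and KRP4 passed in culture at 15 days and not at 9 days, and for both the difference between these responses itself passed the test.

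**Figure D1:**
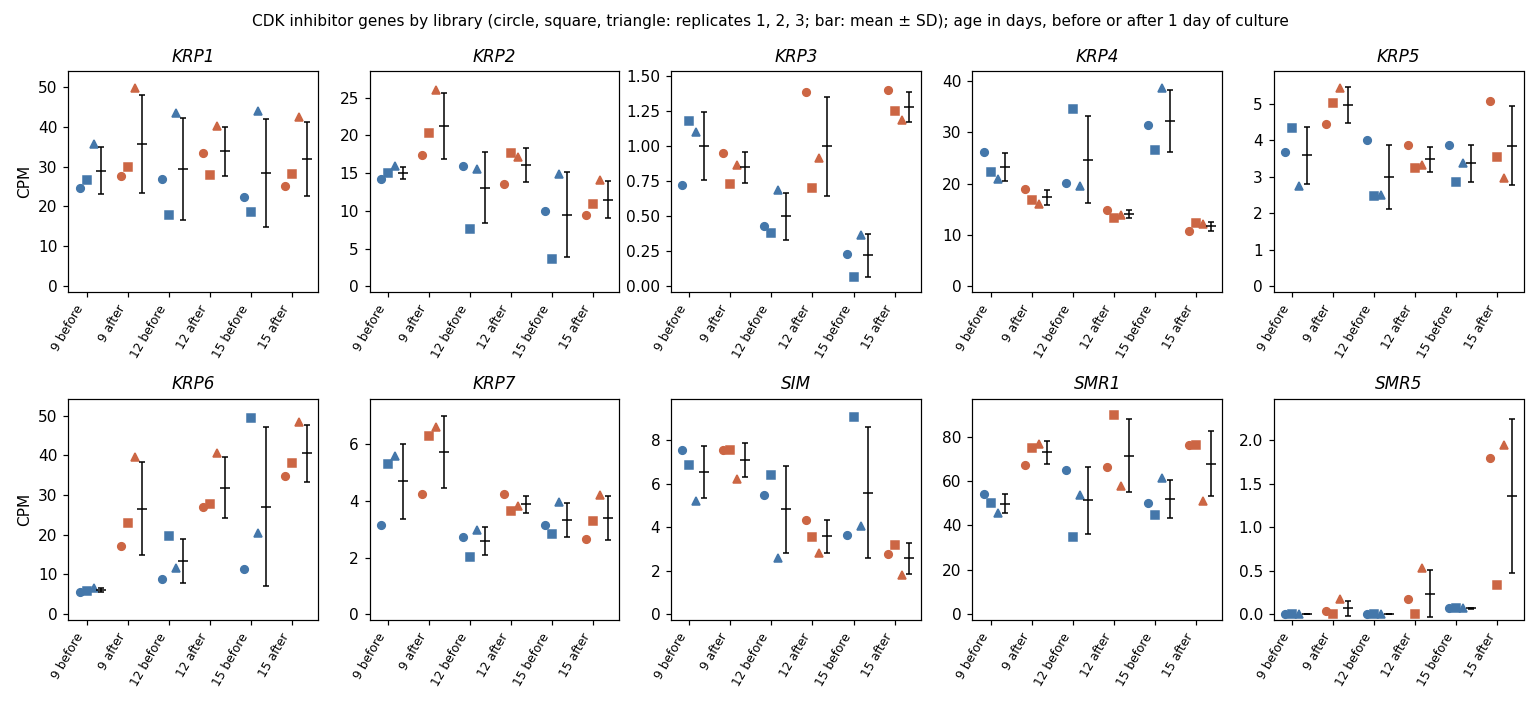
Level of each CDK inhibitor gene in CPM (vertical axes, linear, separate for each gene) in 18 libraries by age and culture. Circles, squares and triangles are replicates 1, 2 and 3, blue before and orange after culture, and black bars are means ± SD over 3 libraries. KRP4 after culture at 15 days lies between 10.7 and 12.3 CPM, below all uncultured libraries, while KRP3 is lowest in 15-day leaves before culture.

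Before the values, the upstream sequences of 3 SMR genes are shown because SMR5 and SMR7 were the inhibitors with the largest log2 fold change in culture at 15 days and SMR4 is known as their partner in DNA stress responses. Each line gives the 250 bases before the annotated gene start, read 5′ to 3′ on the minus strand of the RefSeq TAIR10.1 assembly, at chr1:2305032-2305281 for SMR5, chr3:10231568-10231817 for SMR7 and chr5:442188-442437 for SMR4. Capitals mark 3 motifs searched on both strands: CTT and AAG separated by 7 bases, the form bound by the DNA damage regulator SOG1, the E2F sites TTTCCCGC, TTTGGCGC, TTTCGCGC and TTTGCCGC, and the core AACGG of the MSA element of mitotic genes.
SMR5: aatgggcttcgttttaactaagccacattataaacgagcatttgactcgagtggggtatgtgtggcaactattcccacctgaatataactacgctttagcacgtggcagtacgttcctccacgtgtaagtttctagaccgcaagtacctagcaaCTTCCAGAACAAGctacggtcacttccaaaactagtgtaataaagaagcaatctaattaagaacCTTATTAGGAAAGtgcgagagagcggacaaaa
SMR7: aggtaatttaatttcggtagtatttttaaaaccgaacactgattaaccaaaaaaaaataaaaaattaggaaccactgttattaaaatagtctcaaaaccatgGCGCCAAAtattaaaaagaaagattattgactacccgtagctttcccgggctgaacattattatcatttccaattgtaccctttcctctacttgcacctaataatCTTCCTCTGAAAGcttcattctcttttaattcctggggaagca
SMR4: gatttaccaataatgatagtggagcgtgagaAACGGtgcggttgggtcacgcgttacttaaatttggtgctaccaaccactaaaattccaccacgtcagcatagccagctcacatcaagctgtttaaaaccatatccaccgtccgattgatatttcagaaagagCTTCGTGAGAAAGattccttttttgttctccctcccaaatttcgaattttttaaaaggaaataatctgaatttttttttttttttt
In windows from 250 bases before to 50 after the gene start, the SOG1 form was present in 11.8% of 27443 protein-coding genes, an E2F site in 1.76% and the AACGG core in 24.7%. SMR5 had the SOG1 form starting at positions -96 and -32 from the gene start, SMR7 at -43 and 28, and SMR4 at -86. SMR7 also had an E2F site on the opposite strand, at -148, and SMR4 the AACGG core at -219. Among the other members, KRP6 had the SOG1 form at -5 and KRP7 at -141. The AACGG core occurred in the windows of KRP1, with 7 matches, KRP7, with 5, KRP2, with 3, and KRP3 and KRP6, with 1 each. No match to any of the 3 motifs was present in these windows of KRP4, KRP5, SIM and SMR1. A match is a description of these letters only, and no match in this window says nothing about the factors.

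Culture of 9-day leaves was compared first. KRP6 was the 1 member of 10 called and was higher, where 9.54% of all genes tested had an adjusted p below 0.05 (5.82% higher). KRP6 (AT3G19150, chromosome 3, 6616330 to 6617951, minus strand) encodes a KRP inhibitor best known from the germ line, where its removal lets pollen cells divide. It stood at 5.6, 5.9 and 6.55 CPM before culture and at 17.1, 22.9 and 39.6 CPM after it. All 3 cultured libraries were above all 3 uncultured ones, and replicate 3 was the highest in both groups. The log2 fold change was 2.14 ± 0.46 (SE), adjusted p = 0.00857, edgeR quasi-likelihood test with Benjamini-Hochberg adjustment, which is used throughout. Replicates 1 and 2 gave a log2 ratio of 1.80 and replicate 3 a ratio of 2.60. Without replicate 3 in all groups the call was lost, at 1.76 and adjusted p = 0.154, and without replicate 1 it was 2.33 with adjusted p = 0.0531.

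At 12 days KRP6 was also higher in every cultured library, at 27, 27.8 and 40.6 CPM against 8.9, 19.7 and 11.7 CPM before culture, where 19.7 belongs to the library of replicate 2 that stood apart. Its log2 fold change of 1.25 ± 0.45 had an adjusted p of 0.0628 (edgeR quasi-likelihood), and without the 2 libraries that stood apart it was 1.63 ± 0.35, adjusted p = 0.00452. At 15 days the uncultured libraries held 11.3, 49.5 and 20.4 CPM and the cultured ones 34.8, 38.1 and 48.5 CPM. The groups overlapped only through uncultured replicate 2, and the log2 fold change was 0.58 ± 0.44, adjusted p = 0.305. Without the 2 libraries that stood apart KRP6 rose at 15 days as well, by 1.34 ± 0.34, adjusted p = 0.00688. The difference between the responses at 15 and 9 days was -1.56 ± 0.63, adjusted p = 0.0899, and -0.80 ± 0.44, adjusted p = 0.21, without these libraries.

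KRP6 also rose with age in leaves that had not been cultured. From 9 to 15 days before culture its log2 fold change was 2.17 ± 0.46, adjusted p = 0.00165, with no overlap between 5.6 to 6.55 CPM at 9 days and 11.3 to 49.5 CPM at 15 days. It was 1.39 ± 0.33, adjusted p = 0.00412, without the 2 libraries that stood apart. After culture the 15- and 9-day leaves overlapped, and the log2 difference was 0.61 ± 0.44, adjusted p = 0.343.

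KRP4 (AT2G32710, chromosome 2, 13873362 to 13876737, plus strand) encodes an inhibitor that, in the shoot apex, is shared out with the chromosomes at mitosis and links entry into S phase to cell size. It was the 1 member of 10 called in culture at 12 days, where 19.7% of all genes were called (9.33% lower). Levels there were 20.2, 34.5 and 19.6 CPM before culture and 14.8, 13.4 and 13.9 CPM after it. The groups did not overlap, and replicate 2 before culture, the library that stood apart, was the highest of the 6. KRP4 fell by 0.81 ± 0.20 on the log2 scale, adjusted p = 0.0112, and the value without that library was -0.50, adjusted p = 0.0588. Without both libraries that stood apart it was -0.50 ± 0.14 and was called, adjusted p = 0.0208. The call was also lost without replicate 1 in all groups (adjusted p = 0.0802), without replicate 2 (adjusted p = 0.154, at -0.46) and without replicate 3 (adjusted p = 0.0596, at -0.95).

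KRP4 also fell in culture at 15 days. The uncultured libraries held 31.4, 26.6 and 38.6 CPM and the cultured ones 10.7, 12.3 and 12.1 CPM, so that the lowest uncultured library was above every cultured one. KRP4 fell by 1.46 ± 0.21 on the log2 scale, adjusted p = 9.4e-05, with log2 ratios of -1.33 in replicates 1 and 2 and -1.67 in replicate 3. At 9 days, 26.2, 22.2 and 21 CPM before culture stood against 19, 16.9 and 16 CPM after it. These groups did not overlap either, but the log2 fold change of -0.42 ± 0.20 had an adjusted p of 0.223. Without the 2 libraries that stood apart, which are in neither of these groups, it was -0.43 ± 0.13, adjusted p = 0.0335. The response at 15 days was below that at 9 days by a log2 difference of -1.04 ± 0.29, adjusted p = 0.0202, in a comparison in which 20.8% of all genes were called, 11% higher and 9.77% lower, and 2 of the 10 members. That difference was lost without replicate 1 or replicate 3 in all groups, at -1.02 with adjusted p = 0.184 and at -0.83 with adjusted p = 0.176. It was also just past the threshold, between adjusted p of 0.0515 and 0.0534, without replicate 2 of uncultured 9-day leaves, replicate 1 of cultured 9-day leaves or replicate 1 of cultured 15-day leaves.

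Summed levels of mesophyll markers, and at 12 and 15 days of guard cell markers, were also lower in cultured leaves. The summed level of 5 mesophyll markers at 15 days was 29536 to 46680 CPM uncultured and 17308 to 19503 CPM cultured, and at 9 days 53741 to 81436 CPM and 37380 to 41886 CPM. That of 4 guard cell markers at 15 days was 2200 to 2536 CPM uncultured and 851 to 1078 CPM cultured, and at 9 days the groups overlapped. At 12 days the guard cell sum was 3576 to 6078 CPM uncultured and 1704 to 3200 CPM cultured. The mesophyll sum at 12 days was 65521 to 76207 CPM and 23349 to 26275 CPM. In culture at 12 days 3 of the 5 mesophyll and 1 of the 4 guard cell markers fell and 0 rose, where 9.33% of all genes were called lower. In culture at 15 days 3 of the 5 mesophyll markers fell and 0 rose, where 20.8% of all genes were called lower. Of the 4 guard cell markers 2 fell and 1 rose, KAT1 (1.24 ± 0.42, adjusted p = 0.027). TGG1 held most of the guard cell sum, at 2280 CPM uncultured and 908 CPM cultured. The part of these markers in the falls of KRP4 and SIM was not tested.

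With age, KRP4 had a log2 difference of 0.48 ± 0.20 from 9 to 15 days before culture (adjusted p = 0.0676) and of -0.56 ± 0.20 after it (adjusted p = 0.0581), with no overlap in either case. Both passed without the 2 libraries that stood apart, at 0.60 ± 0.14 (adjusted p = 0.00387) and -0.57 ± 0.13 (adjusted p = 0.00404). The 3' part of KRP4 shares 926 nucleotides with exons of CB5-B (AT2G32720), a cytochrome b5 gene on the opposite strand, and strand use in counting is not stated. CB5-B moved the other way in culture at 15 days, by 1.10 ± 0.20, adjusted p = 0.000539, from 14 ± 3.76 to 30.1 ± 3.09 CPM (SD).

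KRP3 (AT5G48820, chromosome 5, 19792270 to 19794480, minus strand), a KRP inhibitor of CDKA;1 complexes, was low throughout, at 0.0643 to 1.4 CPM. Before culture it stood at 0.724, 1.18 and 1.1 CPM at 9 days, 0.431, 0.379 and 0.69 CPM at 12 days and 0.23, 0.0643 and 0.367 CPM at 15 days. The 3 ages did not overlap, and each older group was below the younger one. Summed expected counts behind these levels were 115, 46 and 24. From 9 to 15 days KRP3 fell by 2.14 ± 0.46 on the log2 scale, adjusted p = 0.00177. In this comparison 45.2% of all genes were called, 23.2% higher and 22% lower, and 2 of the 10 members, KRP6 higher and KRP3 lower.

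After culture KRP3 was at 0.954, 0.732 and 0.864 CPM at 9 days, 1.39, 0.702 and 0.915 CPM at 12 days and 1.4, 1.25 and 1.19 CPM at 15 days. All 15-day cultured libraries were above all 15-day uncultured ones, whereas the 9-day groups overlapped. Cultured leaves of 15 against 9 days had a log2 difference of 0.59 ± 0.42, adjusted p = 0.332. The log2 fold change in culture was -0.24 ± 0.42 at 9 days (adjusted p = 0.805), 0.99 ± 0.43 at 12 days (adjusted p = 0.127) and 2.49 ± 0.46 at 15 days (adjusted p = 0.000666). At 15 days, replicates 1 and 2 gave a log2 ratio of 3.17 and replicate 3 a ratio of 1.70. The response at 15 days exceeded that at 9 days by 2.73 ± 0.62, adjusted p = 0.00696, and by 2.30 ± 0.51, adjusted p = 0.00631, without the 2 libraries that stood apart. This difference was lost without replicate 1 in all groups (2.95, adjusted p = 0.0981) and without replicate 2 (2.12, adjusted p = 0.0676).

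KRP1, KRP2, KRP5 and KRP7 were not called by edgeR in any of 12 comparisons. KRP1 (AT2G23430), the first inhibitor of this family described in the plant, ranged from 17.8 to 49.7 CPM, and its log2 differences between groups lay between -0.16 and 0.30. KRP2 (AT3G50630), which restrains founder cell division in lateral root formation, ranged from 3.6 to 26.1 CPM. Its lowest values, 7.62 and 3.6 CPM, were in the 2 libraries that stood apart. After culture KRP2 was at 17.4, 20.3 and 26.1 CPM at 9 days and at 9.4, 10.9 and 14.1 CPM at 15 days, without overlap, a log2 difference of -0.89 ± 0.38 with adjusted p = 0.104. Without the 2 libraries that stood apart, which are in neither of these groups, it was -0.90 with adjusted p = 0.00376.

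KRP5 (AT3G24810), known for DNA content and cell elongation in hypocotyl and root, ranged from 2.48 to 5.42 CPM, with log2 differences between -0.51 and 0.47. KRP7 (AT1G49620) ranged from 2.03 to 6.62 CPM. Its largest log2 difference was -0.86 ± 0.27 between 12 and 9 days before culture, adjusted p = 0.0661, with 2.74, 2.03 and 2.96 CPM against 3.15, 5.31 and 5.6 CPM. The groups did not overlap. From 9 to 15 days after culture the KRP7 log2 difference was -0.75 ± 0.27, adjusted p = 0.0528, and -0.77 with adjusted p = 0.031 without the 2 libraries that stood apart. DESeq2 called KRP7 in both comparisons, at -0.87 (adjusted p = 0.021) and -0.73 (adjusted p = 0.028).

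**Figure D2:**
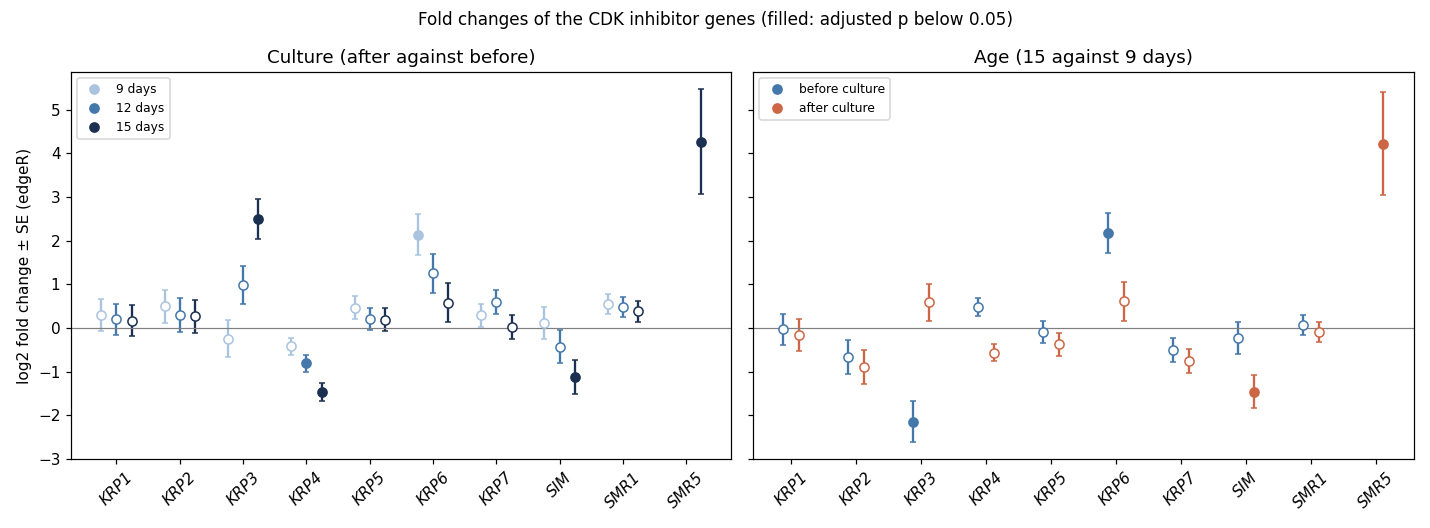
Log2 fold changes (vertical axis, ± SE from edgeR) of the 10 members for culture at 9, 12 and 15 days (left) and for 15 against 9 days before and after culture (right); filled points have an adjusted p below 0.05. SMR5 is drawn only where neither group was at 0 counts. KRP4 goes from -0.42 at 9 days to -1.46 at 15 days in culture, KRP3 from -0.24 to 2.49 and KRP6 from 2.14 to 0.58.

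The make-up of the KRP transcript pool was compared per length, in TPM, the authors' length-scaled relative abundance. The summed TPM of the 7 KRP genes ranged from 72.8 in replicate 1 of uncultured 9-day leaves to 192 in replicate 3 of cultured 9-day leaves. KRP6 made up 7.97%, 8.39% and 8.45% of this sum before culture at 9 days and 20.3%, 23.8% and 28.8% after it. At 15 days its share was 15.8%, 52.7% and 18.1% before culture and 41.4%, 41.6% and 41.2% after it. The value of 52.7% was in replicate 2, which stood apart, and the other 2 uncultured libraries were below all cultured ones. The share of KRP4 at 15 days was 28.4%, 18.1% and 22.1% before culture and 7.89%, 8.38% and 6.3% after it, without overlap. The share of KRP1 in cultured leaves lay between 27.3% and 33.3% over the 3 ages. These shares are a description, since all parts of a sum move when 1 part does.

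**Figure D3:**
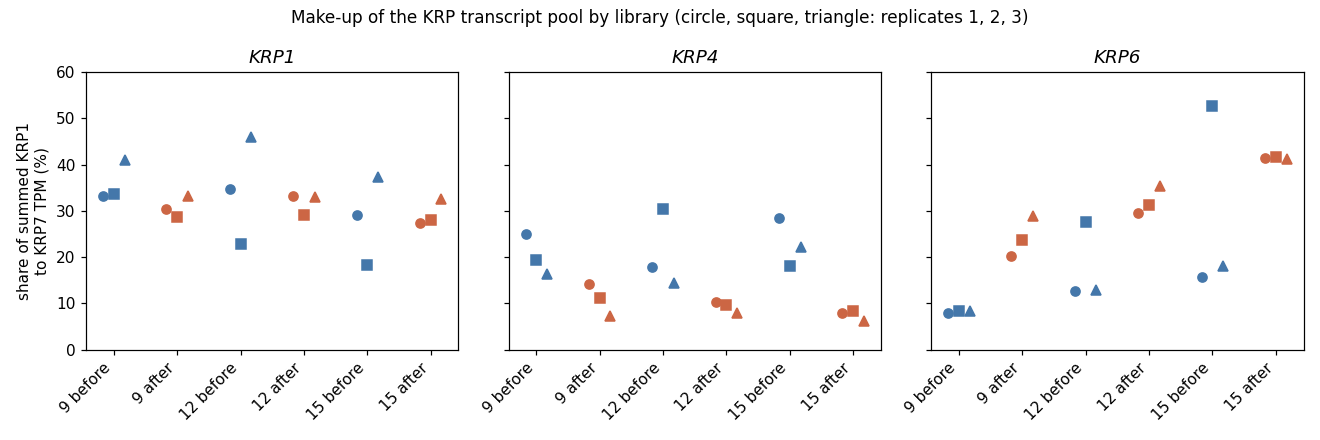
Share of KRP1, KRP4 and KRP6 in the summed TPM of KRP1 to KRP7 (vertical axis, percent) in each library by age and culture; circles, squares and triangles are replicates 1, 2 and 3. The KRP6 share is 7.97% to 8.45% in uncultured 9-day leaves and 41.2% to 41.6% in cultured 15-day leaves, and replicate 2 is the highest uncultured library at 12 days, with 27.5%, and at 15 days, with 52.7%.

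SMR1 (AT3G10525, chromosome 3, 3281306 to 3282131, minus strand), which sets giant, endoreduplicated epidermal cells, had the highest level per length of the 10 members in all 6 groups. Its mean TPM was 83.3 ± 7.26 (SD), 78.9 ± 23.4 and 91.4 ± 22.1 at 9, 12 and 15 days before culture, and 136 ± 15, 138 ± 26.1 and 134 ± 24 after it. In no group did its libraries overlap those of the next gene in the order, which was KRP1 or KRP6. In 9-day leaves SMR1 had 54.3, 50 and 45.5 CPM uncultured and 67.1, 75.1 and 76.8 CPM cultured, without overlap. It had 65, 35 and 53.7 against 66.5, 89.9 and 58 at 12 days and 50.2, 44.6 and 61.4 against 76.4, 76.3 and 51.1 at 15 days, and there the groups overlapped. The log2 fold changes in culture were 0.55 ± 0.23, 0.48 ± 0.23 and 0.38 ± 0.23 at 9, 12 and 15 days, with adjusted p of 0.162, 0.168 and 0.2. At 15 days replicate 3 had a log2 ratio of -0.27, against 0.69 in replicates 1 and 2. SMR1 shares 333 exon nucleotides with AT3G10527 on the opposite strand, and with the counts of that gene added the 3 values were 0.57, 0.46 and 0.40.

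The rest of the order of TPM levels depended on the group. In uncultured 9-day leaves KRP1 (32.6 ± 12.3) came next, followed by KRP2 (18.4 ± 4.01) and KRP4 (17.4 ± 1.68), whose libraries overlapped, SIM (11.4 ± 0.435), then KRP6 (7.38 ± 2), KRP7 (7.18 ± 3) and KRP5 (4.75 ± 0.534), of which KRP7 overlapped both others, KRP3 and SMR5, listed at 0. In cultured 15-day leaves KRP6 (58.2 ± 13.3) and KRP1 (41.8 ± 14) overlapped, and so did SMR5 (17.4 ± 11.7) and KRP2 (16.6 ± 4.16). KRP4 (10.4 ± 0.916) did not overlap its neighbours there. KRP3 was at 1.74 ± 0.131 TPM, the lowest level of the 10, and SIM at 5.35 ± 1.27 TPM was next to it. The TPM of SMR5 rests on an annotated length of 266 nucleotides, and such short lengths make values per length uncertain.

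SIM (AT5G04470, chromosome 5, 1266625 to 1267416, minus strand) keeps developing trichomes, the leaf hairs, from dividing. It fell in culture at 15 days, where 41.9% of all genes were called, 21.1% higher and 20.8% lower, and 4 of the 10 members, KRP3 and SMR5 higher and KRP4 and SIM lower. SIM stood at 3.64, 9.07 and 4.03 CPM before and at 2.77, 3.16 and 1.79 CPM after culture. The groups did not overlap, and replicate 2 before culture, which stood apart, was more than the sum of the other uncultured libraries. The log2 fold change was -1.12 ± 0.38, adjusted p = 0.0278, and without the 2 libraries that stood apart it was -0.60 ± 0.32, adjusted p = 0.151. The call was also lost without replicate 1 in all groups (-1.40, adjusted p = 0.0917), replicate 3 (-1.06, adjusted p = 0.0591), cultured 15-day replicate 1 (-1.19, adjusted p = 0.056) or cultured 15-day replicate 3 (-0.91, adjusted p = 0.109).

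Between ages, SIM fell in cultured leaves. The libraries held 7.55, 7.52 and 6.19 CPM at 9 days, 4.34, 3.56 and 2.8 CPM at 12 days and 2.77, 3.16 and 1.79 CPM at 15 days. The 9-day libraries were above all others, and the 12- and 15-day libraries overlapped. From 9 to 15 days the log2 fold change was -1.46 ± 0.38, adjusted p = 0.0123, and -1.48 ± 0.29, adjusted p = 0.00198, without the 2 libraries that stood apart. In that comparison 24% of all genes were called, 10.8% higher and 13.1% lower, and 2 of the 10 members, SMR5 higher and SIM lower. The SIM call was lost without replicate 1 in all groups (-1.49, adjusted p = 0.151), without replicate 3 (-1.29, adjusted p = 0.0517) and without cultured 15-day replicate 3 (-1.25, adjusted p = 0.0551). From 9 to 12 days after culture SIM had a log2 difference of -0.99 ± 0.38, adjusted p = 0.173. With the replicate number as a block this difference was -1.0 ± 0.27, adjusted p = 0.0415, though the labels do not state that the numbers pair samples. Before culture SIM at 9 and 15 days overlapped, at a log2 difference of -0.23 ± 0.37, adjusted p = 0.646.

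Trichome markers beside SIM were low. The sum of 6 markers was 29.3 to 31.2 CPM before and 24.6 to 29.5 CPM after culture at 9 days, and 5.3 to 11.8 CPM before and 10.1 to 13.2 CPM after culture at 15 days. GL1, a defining trichome factor, was at 0 in all 3 libraries of 4 groups and at most 0.0369 CPM elsewhere. In culture at 15 days GL2 and GL3 rose and TRY fell, 3 of 5 tested markers, where 41.9% of all genes were called. From 9 to 15 days after culture GL2, TRY and MYB106 fell. Summed levels of 3 epidermis markers were 286 to 363 CPM before and 168 to 184 CPM after culture at 9 days, and 70.8 to 135 CPM before and 67.7 to 84 CPM after culture at 15 days. The part of the trichome and epidermis content in the SIM values was not tested. SIM shares 249 exon nucleotides with AT5G04475 on the opposite strand, which was at most 2 CPM, and adding its counts gave -1.13 for culture at 15 days and -1.51 for 15 against 9 days after culture.

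SMR5 (AT1G07500, chromosome 1, 2304766 to 2305031, minus strand), an inhibitor induced by DNA damage and by reactive oxygen species, was near 0 before culture. It had 0 counts in the 6 uncultured libraries of 9 and 12 days, and 1.75, 1.79 and 2.75 expected counts at 15 days. After culture it had 1.14, 0 and 6.77 expected counts at 9 days, 5.54, 0 and 18.14 at 12 days and 68.04, 12.72 and 107.85 at 15 days. Replicate 2 was the lowest cultured library at each age and replicate 3 the highest. Over a floor of 3 counts per group, SMR5 was at least 2.76-fold higher after culture at 9 days, from a rounded sum of 8 counts, and at least 6.73-fold higher at 12 days, from 24 counts. Replicate 3 held 6.77 of the counts at 9 days, and without it the cultured group was under the floor, so that no bound remains. At 12 days replicate 3 held 18.14 of them. Both bounds cover counting error only.

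At 15 days SMR5 went from 0.0656, 0.0643 and 0.0733 CPM to 1.8, 0.34 and 1.95 CPM, so every cultured library was above every uncultured one. SMR5 rose by 4.26 ± 1.20 on the log2 scale, adjusted p = 0.0148, with log2 ratios of 4.04 in replicates 1 and 2 and 4.73 in replicate 3. Without replicate 1 in all groups it was 4.00 with adjusted p = 0.148, and without replicate 3 it was 3.99 with adjusted p = 0.0667. Among cultured leaves SMR5 rose from 9 to 15 days by 4.22 ± 1.18, adjusted p = 0.0243. That call was lost without replicate 1 (3.64, adjusted p = 0.274) or replicate 3 (5.89, adjusted p = 0.0596) in all groups, and without any of 4 single libraries, with adjusted p between 0.0642 and 0.0882. These were replicates 1 and 2 of cultured 9-day leaves and replicates 1 and 3 of cultured 15-day leaves. SMR5 lies wholly within an exon of ftsh10 (AT1G07510) on the opposite strand, a mitochondrial protease gene, and strand use in counting is not stated. If strand was not used, the SMR5 counts, with their zeros and bounds, also depend on how reads were shared between the 2 genes. ftsh10 had 41.4 ± 5.24 CPM before and 43 ± 5.71 CPM (SD) after culture at 15 days, a log2 difference of 0.06 ± 0.14, adjusted p = 0.779.

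No member was called in 6 comparisons of the edgeR test. For 12 against 9 days before culture, where 7.44% of all genes were called, 3 members had an unadjusted p below 0.05 and DESeq2 called 1, KRP7. For 15 against 12 days before culture (14.5% of all genes) these counts were 2 and 0. After culture they were 1 and 0 for 12 against 9 days (4.5% of all genes) and 1 and 0 for 15 against 12 days (0.196% of all genes). For the difference of culture responses they were 0 and 0 between 12 and 9 days (0.0525% of all genes) and 2 and 0 between 15 and 12 days (2.78% of all genes). Without the 2 libraries that stood apart, KRP4 rose from 12 to 15 days before culture by 0.82 ± 0.16, adjusted p = 0.00326, and its culture response was lower at 15 than at 12 days by a log2 difference of -1.10 ± 0.20, adjusted p = 0.00755.

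The other 11 SMR loci were compared as relatives. SMR7 (AT3G27630) and the locus AT5G02420, annotated as an SMR3-like inhibitor, rose in culture at 15 days, 2 of 11, and 0 fell, where 41.9% of all genes were called. SMR7, a DNA damage response inhibitor like SMR5, held 0.0984, 0.0964 and 0.318 CPM before and 4.07, 2.09 and 4.91 CPM after culture, without overlap. Its log2 fold change was 4.36 ± 1.04, adjusted p = 0.00393. At 9 days SMR7 held 0.504, 0.48 and 0.514 CPM before and 0.268, 0.673 and 4.49 CPM after culture, where replicate 3 was far above the others, as it was for SMR5. AT5G02420 rose by 1.10 ± 0.36, adjusted p = 0.0232, from 0.641 to 1.39 CPM. SMR4 (AT5G02220) stood at 0.0656, 1.22 and 0.0244 CPM before and 1.19, 0.862 and 1.43 CPM after culture at 15 days, overlapping through replicate 2, with a log2 fold change of 1.43 ± 0.81 and adjusted p = 0.173. From 9 to 15 days before culture 4 of the 11 loci fell, where 22% of all genes were called lower, with a median log2 difference of -1.18 over the 11 against 0.07 over all genes. These were AT5G02420 (-1.31), AT1G51355 (-1.24), AT2G28870 (-1.18) and AT5G59360 (-2.16). Without the 2 libraries that stood apart, 6 fell before culture from 9 to 15 days, and in culture at 15 days 3 rose and 2 fell.

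The kinases and cyclins that the inhibitors act on were described next, beside 45.2% of all genes called with age before culture and 41.9% in culture at 15 days. Of 19 genes for CDKs, cyclins and CKS proteins, 15 fell from 9 to 15 days before culture, and in culture at 15 days 13 rose and 2 fell. The median log2 differences were -3.10 and 0.93, against 0.07 and -0.07 over all genes. CYCB1;1, a mitotic cyclin, fell by 5.58 ± 0.40 with age, adjusted p = 2.18e-07, and rose by 3.33 ± 0.40 in culture at 15 days, adjusted p = 2.67e-05. CYCD3;1, a D-type cyclin that partners CDKA;1, fell in culture at 9 days by 1.22 ± 0.27 (adjusted p = 0.011) and rose at 15 days by 0.92 ± 0.28 (adjusted p = 0.016). The log2 difference between these 2 responses was 2.14 ± 0.39, adjusted p = 0.0021. CDKA;1, the kinase that the inhibitors bind, had 43.2 CPM before and 36.2 CPM after culture at 15 days and was not called (-0.26 ± 0.28, adjusted p = 0.475). CYCD1;1 and CYCD3;2 were the 2 that fell at 15 days, by 0.97 and 1.37 on the log2 scale.

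**Figure D4:**
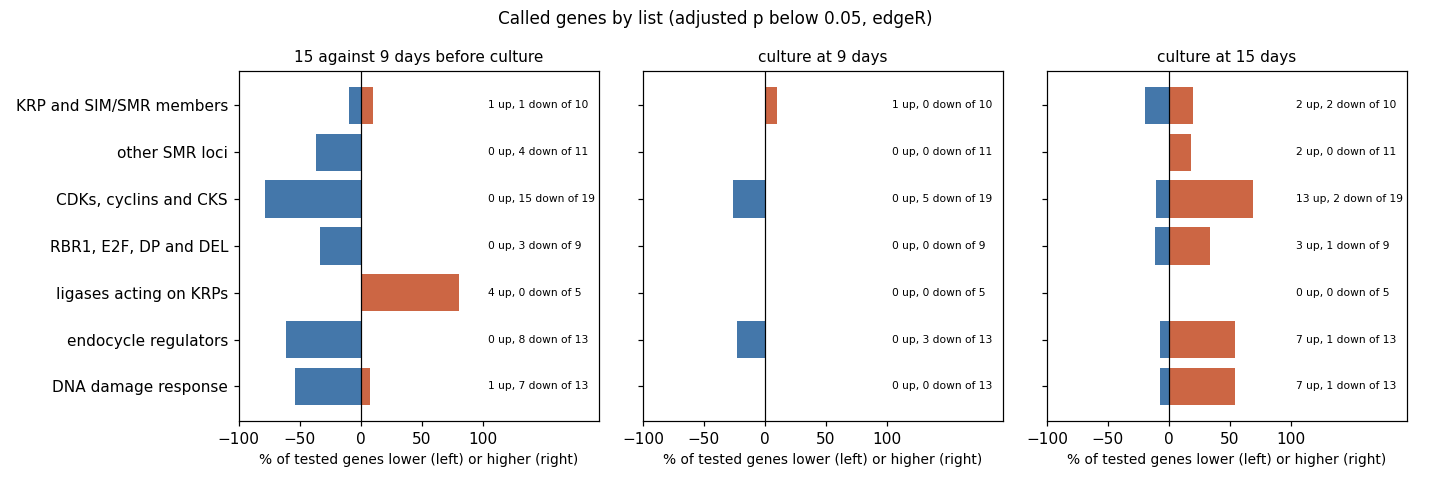
Share of tested genes called higher (orange, right of 0) or lower (blue, left of 0) at an adjusted p below 0.05 in 7 gene lists, for age before culture and for culture at 9 and 15 days; horizontal axis in percent of tested genes, with the counts printed beside the bars. The CDK, cyclin and CKS list has 15 of 19 lower with age and 13 of 19 higher in culture at 15 days, and the 10 inhibitors have 1 higher and 1 lower with age and 2 higher and 2 lower in culture at 15 days.

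Some ubiquitin ligase components are known to target KRP proteins for breakdown. A list of 5 ubiquitin ligase genes was compared, not all of which need act on KRP proteins. Of these, 4 rose from 9 to 15 days before culture, where 23.2% of all genes were called higher. Among them were SKP2A (2.19 ± 0.29, adjusted p = 4.51e-05, from 13.9 to 63.3 CPM), SKP2B (1.50 ± 0.26) and RHF2A (1.16 ± 0.24). The median log2 difference was 1.16 against 0.07 over all genes, and without the 2 libraries that stood apart 3 rose and 1 fell. After culture 2 of the 5 rose from 9 to 15 days, where 10.8% of all genes were called higher. In culture at 15 days none of the 5 was called with edgeR, where 41.9% of all genes were called. Of the 5, 2 had an unadjusted p below 0.05 there and DESeq2 called 1. FBL17, the F-box protein that removes KRP6 and KRP7 in pollen, had a culture response that was higher at 15 than at 9 days by 1.49 ± 0.47, adjusted p = 0.0365. Its own log2 fold changes were -0.98 ± 0.34 at 9 days (adjusted p = 0.0798) and 0.51 ± 0.33 at 15 days (adjusted p = 0.236). From 9 to 15 days before culture FBL17 had a log2 difference of -0.84 ± 0.33 (adjusted p = 0.0518). It went from 24.7 to 13.8 CPM without overlap and was the only gene of the 5 with a negative difference there.

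Downstream of the CDKs, RBR1, the retinoblastoma-related repressor of E2F factors, was at 25.3 CPM before and 36.3 CPM after culture at 15 days, with a log2 fold change of 0.52 ± 0.22 and adjusted p = 0.075. Of 9 genes of the RBR and E2F group, 3 rose and 1 fell in culture at 15 days, a share close to the 41.9% of all genes called there. DEL1, an atypical E2F that holds back endoreduplication, rose by 2.71 ± 0.49 (adjusted p = 0.000574), DEL3 rose by 1.27 ± 0.27, and DEL2 fell by 1.79 ± 0.45. Of 13 endocycle regulators, 8 fell from 9 to 15 days before culture, where 22% of all genes were called lower. In culture at 15 days 7 of the 13 rose and 1 fell, where 21.1% of all genes were called higher and 20.8% lower. UVI4, an inhibitor of the anaphase-promoting complex, rose by 2.5 ± 0.41 (adjusted p = 0.000268) and CDT1A, a replication licensing factor, by 2.52 ± 0.44. GTL1, a repressor of endoreduplication in trichomes, fell by 2.37 ± 0.39. CCS52A1, an activator of the anaphase-promoting complex that promotes endocycles, rose by 1.13 ± 0.27 (adjusted p = 0.00366), and CCS52A2 was at 0.31 ± 0.25 (adjusted p = 0.334).

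DNA damage response genes were set beside SMR5 and SMR7. Of 13 tested genes, 7 rose and 1 fell in culture at 15 days, where 21.1% of all genes were called higher and 20.8% lower, with a median log2 fold change of 1.88 against -0.07 over all genes. BRCA1 rose by 3.47 ± 0.59 (adjusted p = 0.000378) and TSO2, a ribonucleotide reductase subunit, by 2.87 ± 0.45 (adjusted p = 0.000188). These genes are also used in normal DNA replication and repair. ATM, the damage sensor kinase, fell by 0.50 ± 0.17 (adjusted p = 0.0261). Without the 2 libraries that stood apart, 8 of these genes rose and 0 fell in culture at 15 days, so that ATM was no longer called lower. SOG1, which encodes the transcription factor of the pathway, was at 10.7 CPM before and 9.4 CPM after culture, a log2 difference of -0.19 ± 0.18 with adjusted p = 0.425. At 9 days 0 of the 13 were called in culture with edgeR and 0 with DESeq2, where 9.54% of all genes were called. Of the 13, 2 had an unadjusted p below 0.05 there. From 9 to 15 days before culture 7 of the 13 fell and 1 rose, where 22% of all genes were called lower and 23.2% higher. BRCA1 had 4.88 and 0.689 CPM in uncultured leaves of 9 and 15 days and 7.54 CPM in cultured 15-day leaves. TSO2 had 90.5, 13.5 and 98.9 CPM in these groups.

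Genes whose log2 CPM followed a member most closely over the 18 libraries were looked up among 14901 genes with a mean of at least 5 CPM, as a description over libraries that share groups and replicate numbers. KRP6 was closest to SPL4 (Pearson r = 0.944), KRP4 to HCF173 (r = 0.946), KRP3 to GATA17 (r = 0.921) and SMR5 to KTI1 (r = 0.949). SIM was closest to AT1G33080 (r = 0.895), and SMR1 had ARF17 first (r = 0.878) and its overlapping neighbour AT3G10527 among its 3 closest (r = 0.866). KRP5 had no gene above r = 0.781. KRP1 was closest to AT1G47970 (r = 0.941), KRP2 to AT5G59050 (r = 0.939) and KRP7 to UCN (r = 0.845).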

How the data were processed

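RNA from 18 libraries was sequenced on an Illumina instrument. Per the submitters' processing notes, the authors used Trimmomatic, STAR 2.5.3, RSEM 1.3.0 and the TAIR10 genome. Per the file headers, each deposited table gives an RSEM expected count per gene, which shares reads among genes, and the authors' TPM. FPKM was not used. Strand use and the annotation version are not given in the sources used here.

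Expected counts were rounded, kept by filterByExpr at a minimum count of 10 and scaled by TMM. In R 4.3.3, edgeR 4.0.16 (with limma 3.58.1) fitted 1 mean for each group and its quasi-likelihood test was used, with Benjamini-Hochberg adjustment over 20952 genes within each of 12 contrasts and a threshold of 0.05. The common biological coefficient of variation was 0.34. Comparisons of ages share groups. CPM uses TMM-scaled library sizes. The steps were tested on simulated counts with the same, smaller spread for every gene and no libraries that stood apart. That test therefore gives no error rate for these data. Replicates differed by more than counting noise, with a chi-square per degree of freedom of at least 28.6.

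The labels do not state that replicate numbers pair samples. Deviations of same-numbered libraries from their group means correlated above 0.1 in every replicate for culture at 9 days (0.363, 0.321, 0.492). The same held for 12 against 9 days after culture (0.375, 0.296, 0.643) and 15 against 12 days before culture (0.365, 0.732, 0.256). For the other compared groups it did not. The value of 0.732 was between the 2 libraries that stood apart, and 0.643 was in replicate 3, whose labels are worded otherwise. Features that such libraries share can also raise these values, so they do not establish pairing.

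The members and gene lists were chosen with earlier results of these data known. All 10 members are named; of other lists, up to 3 called genes with the largest change, any called gene moving against its list, and RBR1, FBL17, SOG1, SMR4, SMR7, CCS52A1, CCS52A2, CDKA;1, CYCD3;1 and CYCB1;1. 1 result that this rule names is not reported here. For likeness, the 3 genes with the highest correlation of log2(CPM + 0.5) were found. Coordinates and sequences are RefSeq's TAIR10.1. Gene lengths were the same as in the files for 16593 of 16746 single-transcript genes (99.1%, within 0.5 nt). Alternatives included DESeq2 1.42.0, RLE factors, no count filter, a replicate block, a term for replicate 3 and leaving out libraries. Figures used Python 3.11.15 and matplotlib 3.10.9.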

Additional observations from a re-analysis of the deposited data

Results flagged for a closer look

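The culture response differed between 15- and 9-day leaves for 2 of the 10 members by a test of the difference itself (edgeR quasi-likelihood, Benjamini-Hochberg). In this comparison 20.8% of all genes were called, so the count of members is near the share over all genes. Both calls were lost without replicate 1 in all groups. That of KRP4 was also lost without replicate 3, and that of KRP3 without replicate 2. For KRP4 the log2 difference of the responses was -1.04 ± 0.29, adjusted p = 0.0202, with cultured libraries below uncultured ones at each age. For KRP3 it was 2.73 ± 0.62, adjusted p = 0.00696, and from 9 to 15 days KRP3 fell before culture (-2.14 ± 0.46, adjusted p = 0.00177) and was not called after it (0.59 ± 0.42, adjusted p = 0.332).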

How the results depend on the processing

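Of 324 counts of members called under another setting, 279 stayed within 1.5 times the reported count and 45 did not, and of 1039 log2 values 950 kept their direction and their side of the threshold, 31 lost and 48 gained a call and 10 changed sign. The cause of these changes was not tested. Each setting was fitted to all genes, and the shares of all genes called under each setting are not given here. The counts below can therefore move with calls over all genes and are not a result about the members alone. Without the second libraries of 12- and 15-day leaves before culture, the members called were 2 for culture at 9 days, 2 at 12 days, 1 for 15 against 12 days before culture, 1 for 12 against 9 days and 5 for 15 against 9 days after culture, and 1 for the difference of responses between 15 and 12 days. With the replicate block they were 3 for culture at 12 days, 1 for 12 against 9 days before culture and 1 for 12 against 9 days after culture. The last was SIM, at -1.0. Only in the last of these did same-numbered libraries correlate above 0.1 in every replicate, which does not establish pairing. Between uncultured and cultured 12-day leaves, the deviations of same-numbered libraries correlated at -0.23, 0.115 and 0.241, so pairing was not seen there. A term for replicate 3 gave 2, 1 and 1 in the same comparisons, and DESeq2 gave 3 for culture at 12 days, 1 for 12 against 9 days before culture and 4 for 15 against 9 days after culture. RLE factors moved log2 differences between groups by at most 0.0227.

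When replicates or single libraries were left out, the members called ranged from 0 to 1 for culture at 9 days, 0 to 2 at 12 days and 2 to 4 at 15 days. They ranged from 0 to 2 for 12 against 9 days and 0 to 1 for 15 against 12 days before culture, and from 0 to 5 for 15 against 9 days after culture. For the differences of responses they ranged from 0 to 1 (15 minus 12 days) and 0 to 3 (15 minus 9 days). The 10 values that changed sign belong to 5 differences that were not called. The log2 difference of SIM ranged from -0.02 to 0.21 for culture at 9 days and from -0.76 to 0.10 for 15 against 9 days before culture. That of SMR1 ranged from -0.15 to 0.16 for 15 against 9 days before culture, from -0.27 to 0.15 after it, and from -0.40 to 0.31 for the difference of responses. Adding the counts of the overlapping gene to those of SIM and SMR1, chosen after seeing the data, changed no call. Values of SMR5 and KRP3 rest on low counts.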
